A study of Homo sapiens with 6 samples.

Results

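The 10 genes described here (DUSP4, DUSP5, DUSP6, SPRY1, SPRY2, SPRY4, SPRED1, ETV4, ETV5 and PHLDA1) are the transcriptional output and the feedback inhibitors of ERK signalling. They were taken by gene name from the deposited tables of 57914 genes, and all 10 were found and were abundant enough to be tested. RNA had been sequenced from A375 cells, an established BRAF mutant human melanoma line. Cells were stained with Aldefluor, a substrate that turns fluorescent in cells with aldehyde dehydrogenase (ALDH) activity, and sorted. ALDH_High (3 libraries) held the 5% of cells with the highest signal, and ALDH_Low (3 libraries) the 5% with the lowest. Both groups carried the dye and came from the same line in high-glucose medium with serum and glutamine, no drug or edited allele is labelled in either, and no unsorted cells were part of the comparison. In bulk RNA such as this, fewer cells that express a gene and less RNA of it per cell cannot be told apart. The labels do not say whether the replicates came from separate cultures or sorts, so p-values measure the spread between these libraries, which may be technical.

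In the ERK pathway, RAS activates the kinases RAF, MEK and ERK in turn, and in BRAF mutant melanoma the cascade runs without a signal from outside. Active ERK switches on genes that report its activity and others that restrain it. The Sprouty proteins (SPRY1, SPRY2, SPRY4) and SPRED1 act near receptors, RAS and RAF, the dual-specificity phosphatases DUSP4, DUSP5 and DUSP6 remove the activating phosphates from ERK, and ETV4 and ETV5 are ETS transcription factors that carry the signal to further genes.

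Total counts lay between 26692868 and 37830603 per library. ALDH1A3, the dehydrogenase named in the study's title, had 683 to 1149 CPM (counts scaled to a common library size with TMM factors) in ALDH_High and 345 to 420 CPM in ALDH_Low. Of 9 melanocyte lineage and melanoma markers, SOX10 (670 ± 122 CPM in ALDH_High against 194 ± 18.3 CPM in ALDH_Low), S100A1 (29.9 ± 3.40 against 1.14 ± 0.971 CPM) and S100B (32.2 ± 4.10 against 1.68 ± 1.33 CPM) were called higher and MITF lower by 1.90-fold (SD, n = 3). PMEL had at most 19 counts in any library, and MLANA, TYR, DCT and TYRP1 were too low to be tested, MLANA and TYR with at most 3 counts. Marker lists of other cell types were low in sum: 2.84 to 6.90 CPM in ALDH_High and 1.87 to 2.73 CPM in ALDH_Low for leukocytes, 10.4 to 19.7 and 9.78 to 11.6 CPM for keratinocytes, 0.710 to 1.58 and 0.827 to 2.28 CPM for endothelium, and 9.64 to 11.5 and 7.41 to 10.2 CPM for fibroblasts. Among them LYZ was called higher in ALDH_High (54 counts or fewer in ALDH_Low, up to 170 in ALDH_High) and CD14 and KRT5 lower. LYZ missed the threshold when any ALDH_Low replicate was left out (1.42 to 1.79, edgeR adjusted p 0.0548 to 0.0897), and CD14 without ALDH_High replicate 2, ALDH_Low replicate 2 or ALDH_Low replicate 3 (-1.86 to -1.83, 0.0599 to 0.0650). The part of these genes in the results was not tested. On the second principal component, which carried 14.5% of the variance, ALDH_High replicate 1 stood apart from the other two ALDH_High libraries, and results that turn on it are given with and without it.

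The 300 bases around a start annotated in RefSeq are shown for the pair of genes with the largest rise, SPRY4 and SPRY2. They are also shown for DUSP6, which had no detectable change. ETS cores are marked because ETS factors are among those that carry the signal of ERK to genes. The route by which ERK acts on these genes was not tested. The sequences are from RefSeq (GRCh38.p14), run 5′ to 3′ on the strand of the gene from 250 bases before to 50 bases after the start, and carry the ETS core GGAA, or TTCC where it lies on the other strand, in capitals. All of these genes lie on the minus strand, and the windows are chr5:142324198-142324497 for SPRY4, chr13:80341077-80341376 for SPRY2 and chr12:89352452-89352751 for DUSP6. The windows of SPRY2 and DUSP6 span the 5′ end of the gene in GENCODE, whereas that of SPRY4 lies at a start inside the GENCODE gene body and does not reach its 5′ end.
SPRY4: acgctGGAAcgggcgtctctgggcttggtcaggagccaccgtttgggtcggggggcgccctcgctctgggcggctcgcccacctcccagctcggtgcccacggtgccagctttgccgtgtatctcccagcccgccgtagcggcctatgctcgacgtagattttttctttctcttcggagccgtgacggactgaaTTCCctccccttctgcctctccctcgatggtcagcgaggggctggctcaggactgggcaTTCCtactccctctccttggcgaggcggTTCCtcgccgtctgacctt
SPRY2: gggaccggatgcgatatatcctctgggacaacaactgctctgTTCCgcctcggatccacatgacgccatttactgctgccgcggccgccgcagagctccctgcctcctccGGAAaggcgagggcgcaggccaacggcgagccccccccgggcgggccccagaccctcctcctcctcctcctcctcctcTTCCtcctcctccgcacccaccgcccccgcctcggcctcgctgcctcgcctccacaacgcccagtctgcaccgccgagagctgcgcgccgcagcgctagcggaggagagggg
DUSP6: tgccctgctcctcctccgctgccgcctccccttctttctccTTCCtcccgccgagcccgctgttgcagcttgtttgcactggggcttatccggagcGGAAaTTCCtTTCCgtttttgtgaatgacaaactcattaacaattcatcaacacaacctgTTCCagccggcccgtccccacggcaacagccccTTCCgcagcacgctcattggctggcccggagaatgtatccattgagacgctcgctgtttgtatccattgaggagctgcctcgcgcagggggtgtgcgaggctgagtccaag
The window of SPRY4 held 4 GGAA cores, that of SPRY2 held 3 and that of DUSP6 held 6, counted on both strands. A core this short is no mark of the group, since 95.4% of the 34943 RefSeq promoter windows of the same length hold at least 1. Longer motifs were also searched on both strands. CCGGAAG is a longer ETS site that contains GGAA and was in 10.2% of all windows. The CIC octamer was searched in the forms TGAATGAA (1.65%), TGAATGGA (1.02%) and TCAATGAA (0.721%), and its other forms were not searched. The cyclic AMP response element TGACGTCA (1.84%) and the AP-1 site TGANTCA (7.72%) were searched as well. In the 9 windows held for 6 members (SPRY1, SPRY2, SPRY4, SPRED1, DUSP6 and PHLDA1), the single match to these longer motifs was 1 CCGGAAG, in a window of SPRY1. The printed window of DUSP6 does hold the letters tccattga, which on the other strand read as a CIC form that was not searched. The printed windows of SPRY4 and SPRY2 do not hold these letters on either strand. How many of all windows hold this form was not counted. Whether the windows not printed here hold it cannot be read from this search. Windows for DUSP4, DUSP5, ETV4 and ETV5 were not used here, and a match or its absence describes these letters in this window and no more.

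The members did not move as a block. The Sprouty transcripts among the members were higher in ALDH_High, most of all SPRY4 (6.70-fold) and SPRY2 (2.70-fold), and SPRY1, ETV5 and PHLDA1 rose by 1.47-fold to 1.68-fold. DUSP5 fell 2.44-fold. DUSP4, DUSP6, SPRED1 and ETV4 did not pass the test. Thus 5 of the 10 members rose and 1 fell with adjusted p under 0.05 by the quasi-likelihood test of edgeR (Benjamini-Hochberg, over every tested gene), where 20.6% of all 17047 genes tested were called, 10.8% higher and 9.83% lower. The ALDH_High and ALDH_Low values did not overlap for 8 of the 10 members, against 37.8% of all genes. At the stricter threshold of 0.01, 3 members were called (SPRY4, SPRY2 and DUSP5), against 11.3% of all genes. The members had a median log2 fold change of 0.44, and that of all genes tested was -0.013. The number of members called depended on the libraries: 3 (SPRY4, SPRY2 and DUSP5) were called without ALDH_Low replicate 2, the same 3 without ALDH_Low replicate 3, and the other fits that left out a library called 4 to 7. Without ALDH_High replicate 1, 4 members were called higher and 3 lower, as PHLDA1 missed the threshold and DUSP4 and ETV4 passed it. The number of all genes called moved as well. It was 2488 without ALDH_Low replicate 2, 2514 without ALDH_Low replicate 3 and 2507 to 4221 in the other left-out fits, against 3513 with all libraries.

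**Figure D1:**
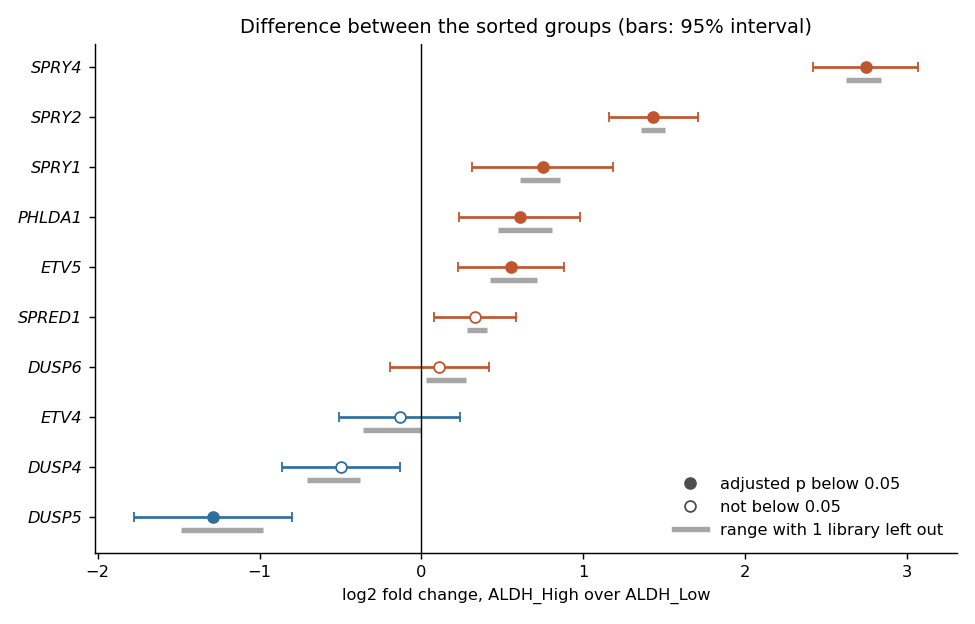
Log2 fold change of each member, ALDH_High over ALDH_Low, with its 95% interval, filled where the adjusted p was below 0.05. Grey bars span the values with 1 library left out. SPRY4 at 2.74 and SPRY2 at 1.43 lie far to the right, DUSP5 at -1.29 lies to the left, and DUSP6 and ETV4 lie close to 0.

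SPRY4 encodes a Sprouty protein that blocks receptor-driven activation of RAS and RAF (ENSG00000187678, GRCh38 chromosome 5, 142310427 to 142326455). It had 210, 164 and 158 CPM in ALDH_High replicates 1, 2 and 3 and 27.2, 23.7 and 28.5 CPM in ALDH_Low replicates 1, 2 and 3. Every ALDH_High library stood above every ALDH_Low library. On the log2 scale SPRY4 was higher by 2.74 (SE 0.15, 95% interval 2.42 to 3.07, edgeR adjusted p 4.29e-06). SPRY4-AS1, an antisense RNA that overlaps SPRY4 by 1247 bases, had at most 37 counts in any library, whereas SPRY4 itself had 709 or more.

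SPRY2 encodes the Sprouty protein most often followed as feedback to growth factor receptors (ENSG00000136158, chromosome 13, 80335976 to 80341126). Its values were 303, 248 and 257 CPM in ALDH_High replicates 1, 2 and 3 and 106, 89.4 and 104 CPM in ALDH_Low replicates 1, 2 and 3. The groups were again apart, with ALDH_High replicate 1 the highest. SPRY2 was higher by 1.43 on the log2 scale (SE 0.12, 95% interval 1.16 to 1.71, edgeR adjusted p 3.94e-05). SPRY2 lies on chromosome 13, where the 177 protein-coding genes that averaged 5 CPM or more had a median log2 fold change of 0.37, with 91.5% of them higher in ALDH_High. Relative to that median, the log2 fold change of SPRY2 was 1.06, and the part of the chromosome in the difference was not tested. The medians of the other 8 chromosomes that carry members lay between -0.017 and 0.057.

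SPRY1, the remaining Sprouty gene among the members, was the least abundant member (ENSG00000164056, chromosome 4, 123396795 to 123403760). It had 8.16, 8.77 and 11.4 CPM in ALDH_High and 6.22, 5.59 and 5.03 CPM in ALDH_Low, in replicate order. The groups did not overlap, but the nearest libraries were close. SPRY1 rose by 0.75 on the log2 scale (SE 0.20, 95% interval 0.31 to 1.19, edgeR adjusted p 0.0226). The call did not hold without ALDH_High replicate 3 (0.61, edgeR adjusted p 0.0929), ALDH_Low replicate 2 (0.74, 0.0671) or ALDH_Low replicate 3 (0.68, 0.0849). SPRY3, which stands in the list of other ERK targets and not among the members, had 0.821 to 1.66 CPM in ALDH_High and 0.683 to 1.69 CPM in ALDH_Low. It was not called (log2 fold change 0.081, edgeR adjusted p 0.918). SPRED1, a relative of the Sprouty proteins that brings the RAS inhibitor neurofibromin to the membrane (ENSG00000166068, chromosome 15, 38252836 to 38357249), had 66.4, 59.9 and 70.1 CPM in ALDH_High and 52.1, 55.3 and 48.6 CPM in ALDH_Low. All ALDH_High values of SPRED1 lay above all ALDH_Low values, yet the difference did not pass the threshold (log2 fold change 0.33, SE 0.11, edgeR adjusted p 0.0669).

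**Figure D2:**
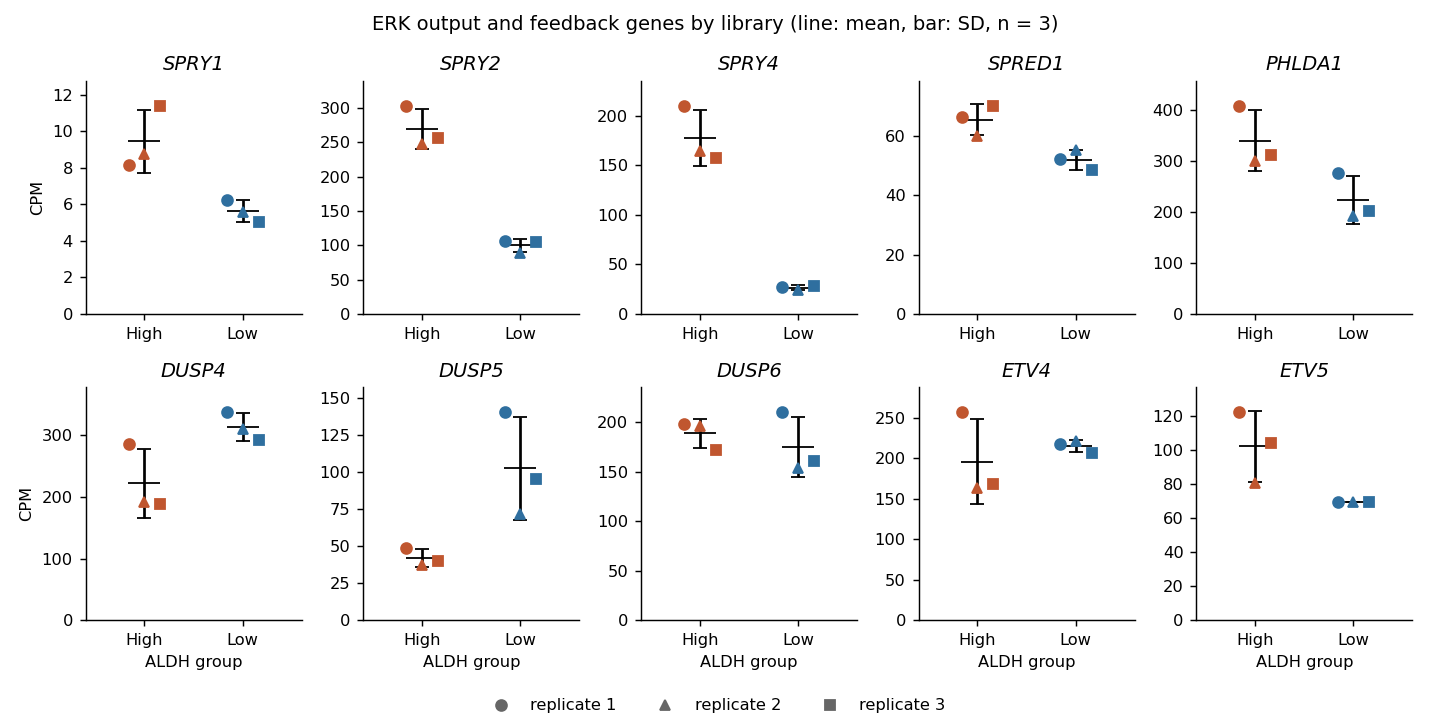
CPM of the 10 members in each library, with symbols for the replicate number, a line at the mean and a bar of 1 SD (n = 3 per group). SPRY4 and SPRY2 show wide gaps between the groups, DUSP4 and DUSP5 are lower in ALDH_High, and the groups of DUSP6 and ETV4 overlap.

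Of the phosphatase genes among the members, DUSP5 alone passed the test, and it fell. DUSP5, which encodes a nuclear phosphatase specific for ERK (ENSG00000138166, chromosome 10, 110497907 to 110511533), had 48.7, 37.5 and 40.5 CPM in ALDH_High replicates 1, 2 and 3. In ALDH_Low replicates 1, 2 and 3 it had 141, 72.2 and 95.8 CPM. The ALDH_Low libraries were widely spread, with replicate 1 the highest, and none reached down to the ALDH_High range. The fitted log2 fold change for DUSP5 was -1.29 (SE 0.22, 95% interval -1.77 to -0.80, edgeR adjusted p 0.00232), and without ALDH_Low replicate 1 it was -0.98.

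DUSP4, another nuclear phosphatase of ERK (ENSG00000120875, chromosome 8, 29333064 to 29350684), had 286, 191 and 188 CPM in ALDH_High replicates 1, 2 and 3 and 337, 310 and 293 CPM in ALDH_Low replicates 1, 2 and 3. The groups did not overlap, but ALDH_High replicate 1 lay next to the ALDH_Low libraries. The log2 fold change of DUSP4 was -0.50 (SE 0.16, edgeR adjusted p 0.0561), just short of the threshold, and without ALDH_High replicate 1 it was -0.70 and passed (edgeR adjusted p 0.00122). DUSP6, the cytoplasmic ERK phosphatase that is commonly read as a gauge of ERK output (ENSG00000139318, chromosome 12, 89347235 to 89352501), had 199, 196 and 172 CPM in ALDH_High and 210, 154 and 161 CPM in ALDH_Low. Its groups overlapped, with the highest and the lowest value both in ALDH_Low. The log2 fold change of DUSP6 was 0.11 (edgeR adjusted p 0.639) with a 95% interval from -0.20 to 0.41, so a change of the size of SPRY2 or DUSP5 lay outside the interval, while smaller ones could not be told from 0.

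ETV4 and ETV5 are close relatives among the ETS factors and were not called alike. ETV5 (ENSG00000244405, chromosome 3, 186046314 to 186110318) had 122, 80.6 and 104 CPM in ALDH_High replicates 1, 2 and 3 and 69.5, 69.7 and 69.7 CPM in ALDH_Low replicates 1, 2 and 3. The ALDH_High libraries were all higher, though widely spread beside the even ALDH_Low libraries. ETV5 rose by 0.55 on the log2 scale (SE 0.15, 95% interval 0.23 to 0.88, edgeR adjusted p 0.0235). It no longer passed without ALDH_High replicate 3 (0.56, edgeR adjusted p 0.0564) or without ALDH_Low replicate 1 (0.57, 0.0667), replicate 2 (0.55, 0.0761) or replicate 3 (0.55, 0.0782). DGKG shares 4651 bases of gene body with ETV5 on the same strand and had between 249 and 782 counts.

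ETV4 (ENSG00000175832, chromosome 17, 43527844 to 43579620) had 257, 163 and 169 CPM in ALDH_High and 218, 222 and 206 CPM in ALDH_Low. ALDH_High replicate 1 was the highest of all 6 libraries and the other ALDH_High libraries were the lowest, so that the groups overlapped. The log2 fold change of ETV4 was -0.14 (SE 0.17, 95% interval -0.51 to 0.24, edgeR adjusted p 0.635), and without ALDH_High replicate 1 it was -0.36 and passed (edgeR adjusted p 0.0205). The gene body of ETV4 lies within that of DHX8 on the opposite strand, and DHX8 had 4318 to 5361 counts. The libraries were made with a stranded kit, but whether the counting used strand is not given in the sources used here, so reads of the overlapping genes may not have been told apart. Whether ETV4 and ETV5 differ from each other in their response was not tested.

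PHLDA1, an ERK-induced gene with a pleckstrin homology-like domain (ENSG00000139289, chromosome 12, 76025447 to 76031776), had 408, 299 and 312 CPM in ALDH_High replicates 1, 2 and 3 and 276, 191 and 202 CPM in ALDH_Low replicates 1, 2 and 3. Replicate 1 was the highest in each group, and the groups did not overlap. PHLDA1 rose by 0.61 on the log2 scale (SE 0.17, 95% interval 0.23 to 0.98, edgeR adjusted p 0.0293). It missed the threshold without ALDH_High replicate 1 (0.47, edgeR adjusted p 0.0538), ALDH_Low replicate 2 (0.51, 0.115) and ALDH_Low replicate 3 (0.54, 0.121). For each of the 8 members with non-overlapping groups the two-sided exact permutation p was 0.1, which is the lower limit of a design with 3 libraries a group. For DUSP6 and ETV4 the exact permutation test gave p = 0.5 and p = 0.4.

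Levels were compared between genes in TPM, a unit of transcript abundance that corrects for gene length. In ALDH_High the order of mean TPM was SPRY2 (210 ± 10.4), ETV4 (136 ± 26.8), DUSP6 (131 ± 7.65), PHLDA1 (106 ± 11.4), SPRY4 (60.4 ± 5.44), DUSP4 (55.9 ± 9.98), ETV5 (45.6 ± 7.45), SPRED1 (28.3 ± 3.05), DUSP5 (25.6 ± 2.07) and SPRY1 (8.03 ± 1.90; SD, n = 3). The neighbours ETV4 and DUSP6, SPRY4 and DUSP4, DUSP4 and ETV5, and SPRED1 and DUSP5 overlapped in their library values. In ALDH_Low the order was ETV4 (146 ± 10.2), DUSP6 (118 ± 22.5), DUSP4 (77.1 ± 7.63), SPRY2 (75.3 ± 6.26), PHLDA1 (67.8 ± 15.2), DUSP5 (60.7 ± 21.2), ETV5 (30.1 ± 1.01), SPRED1 (21.7 ± 2.07), SPRY4 (8.75 ± 0.628) and SPRY1 (4.60 ± 0.617; SD, n = 3). There the neighbours ETV4 and DUSP6, DUSP4 and SPRY2, SPRY2 and PHLDA1, and PHLDA1 and DUSP5 overlapped. SPRY2 was thus the most abundant member in ALDH_High and ranked below ETV4 and DUSP6 in ALDH_Low, and SPRY4 stood above DUSP5 and SPRED1 in ALDH_High and below both in ALDH_Low.

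The summed TPM of SPRY1, SPRY2 and SPRY4 was 293, 264 and 278 in ALDH_High replicates 1, 2 and 3 and 95.7, 81.6 and 88.7 in ALDH_Low replicates 1, 2 and 3. That of DUSP4, DUSP5 and DUSP6 was 223, 214 and 202 in ALDH_High and 313, 227 and 227 in ALDH_Low. Sprouty transcripts therefore outnumbered those of the phosphatases in each ALDH_High library, at ratios of 1.31, 1.24 and 1.38, and were fewer in each ALDH_Low library, at 0.306, 0.359 and 0.390. Within the Sprouty sum, SPRY4 made up 21.7 ± 1.17% in ALDH_High and 9.87 ± 0.321% in ALDH_Low. Within the phosphatase sum, DUSP5 made up 12.0 ± 0.960% and 23.3 ± 3.95%, and DUSP6 made up 61.8 ± 4.11% and 46.1 ± 0.458% (SD, n = 3). The summed TPM of ETV4 and ETV5 overlapped between the groups (154 to 217 and 163 to 184). These sums describe the genes named and were not tested.

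**Figure D3:**
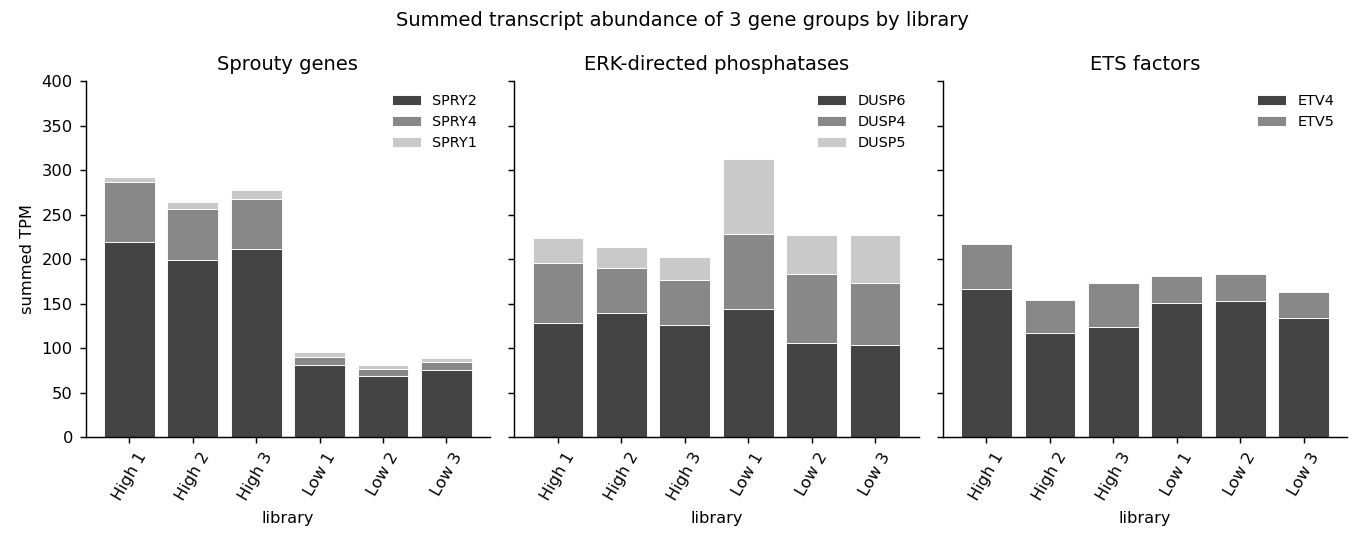
Stacked TPM of the Sprouty genes, the ERK-directed phosphatases and the ETS factors in each of the 6 libraries, on axes that start at 0. The Sprouty bars reach 264 to 293 in ALDH_High and 81.6 to 95.7 in ALDH_Low, while the ETS bars overlap between the groups.

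Across the 6 libraries, profiles of the members were compared by a distance that combines shape and size, so a difference in shape alone cannot be read from it. With each gene centred on its own mean log2 CPM, SPRY4 was nearest to SPRY2 (root mean square difference 0.65) and farthest from DUSP5 (2.00). DUSP4 and ETV4 were nearest to each other (0.19), as were SPRED1 and ETV5 (0.18). DUSP5 was nearest to DUSP4 (0.44), SPRY2 to SPRY1 (0.42), SPRY1 to SPRED1 (0.24), DUSP6 to SPRED1 (0.22) and PHLDA1 to ETV5 (0.19). Among 14034 genes that have a symbol and average 1 CPM or more, those with the profile most like that of DUSP6 were TTC5 (0.047), DISP1 (0.053) and LRRC1 (0.054), with log2 fold changes of 0.079, 0.15 and 0.19, none of which passed the test.

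Replicate 1 was the highest library of its group in both groups for 5 of the 10 members (DUSP4, DUSP5, DUSP6, SPRY2 and PHLDA1), against 16.5% of all genes tested. The same held for 12 of 16 genes of an immediate early and heat shock list, whose members respond within minutes to stimulation or stress. EGR1, an early target of ERK, had 270, 85.6 and 50.1 CPM in ALDH_High replicates 1, 2 and 3 and 390, 166 and 154 CPM in ALDH_Low replicates 1, 2 and 3. It was thus highest in replicate 1 of either group, and its groups overlapped (log2 fold change -0.81, edgeR adjusted p 0.354). Of the 16 genes of the list, EGR3 rose (1.62, edgeR adjusted p 0.000314) and ATF3 (-2.15), ZFP36 (-1.29), JUNB (-0.79) and IER5 (-0.74) fell, and the median log2 fold change was -0.74. Thus 5 of the 16 were called, where 20.6% of all genes were. IER5 missed the threshold without ALDH_High replicate 2 or 3 or ALDH_Low replicate 1 or 3 (-0.72 to -0.58, edgeR adjusted p 0.134 to 0.162). Without ALDH_High replicate 1 the list had 1 gene higher and 12 lower, in a fit that called 4221 of all genes against 3513 with all libraries. The part of these genes' variation in the values of the members was not tested. The count of replicate 1 values was made after the data had been seen.

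**Figure D4:**
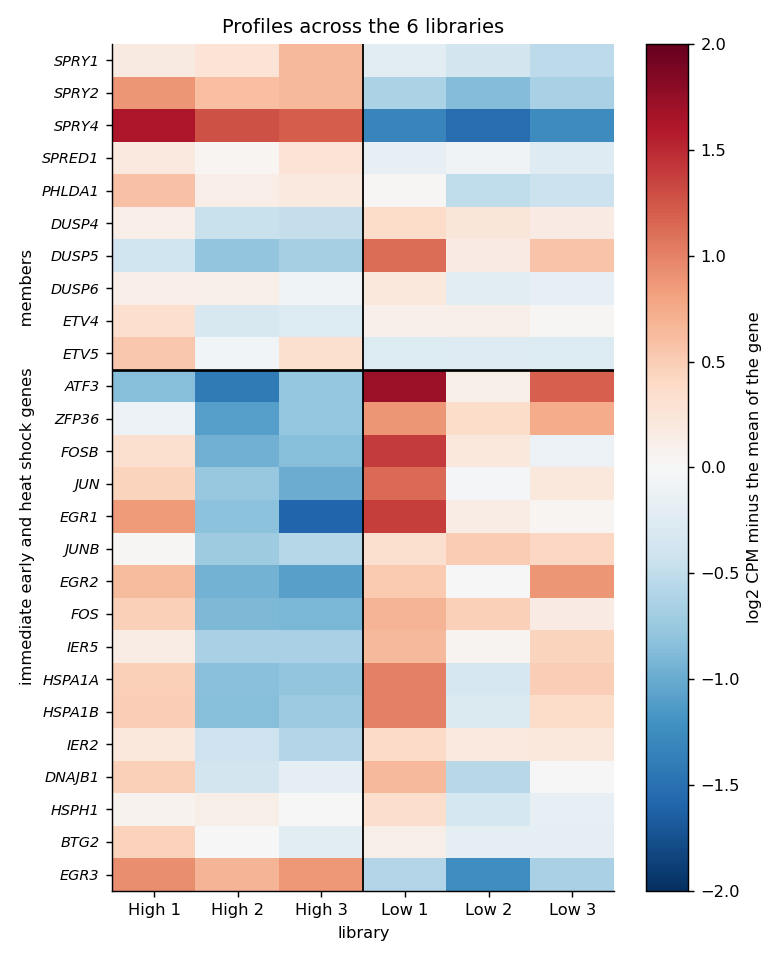
Log2 CPM of the members (above the line) and of the immediate early and heat shock genes (below it, without a prior count) in each library, centred on the mean of each gene. Replicate 1 of each group is redder than its fellow replicates for EGR1, JUN, FOSB and DUSP5, while SPRY2, SPRY4 and EGR3 are red in all ALDH_High libraries.

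Genes of the rest of the pathway were taken from lists and described by their counts. Of 22 tested ligands and receptors upstream of RAS, 5 rose and 9 fell in ALDH_High, where 10.8% of all genes rose and 9.83% fell. The median of the 22 log2 fold changes was -0.021, and its sign turned under several other settings. The receptor ERBB3 had 291, 241 and 294 CPM in ALDH_High and 33.1, 29.2 and 52.7 CPM in ALDH_Low. ERBB3 was thus far apart between the groups, by 2.84 on the log2 scale (SE 0.21, edgeR adjusted p 1.83e-05). FGFR4 (2.47), FGFR3 (1.67) and IGF1R (1.09), which are receptors for fibroblast and insulin-like growth factors, rose as well, and so did the ligand TGFA (0.82). The receptors for fibroblast growth factors did not all rise: FGFR1 fell (-0.68, edgeR adjusted p 0.0210) and FGFR2 was not called (0.43, edgeR adjusted p 0.581). EGFR went from 55.3 ± 11.2 CPM in ALDH_Low down to 16.1 ± 2.21 CPM in ALDH_High (SD, n = 3), a fall of 3.42-fold (edgeR adjusted p 9.05e-05). HBEGF, a ligand of EGFR, fell by 1.38, and MET, the receptor for hepatocyte growth factor, fell by 1.27. ERBB4, KIT and HGF were too low to be tested.

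**Figure D5:**
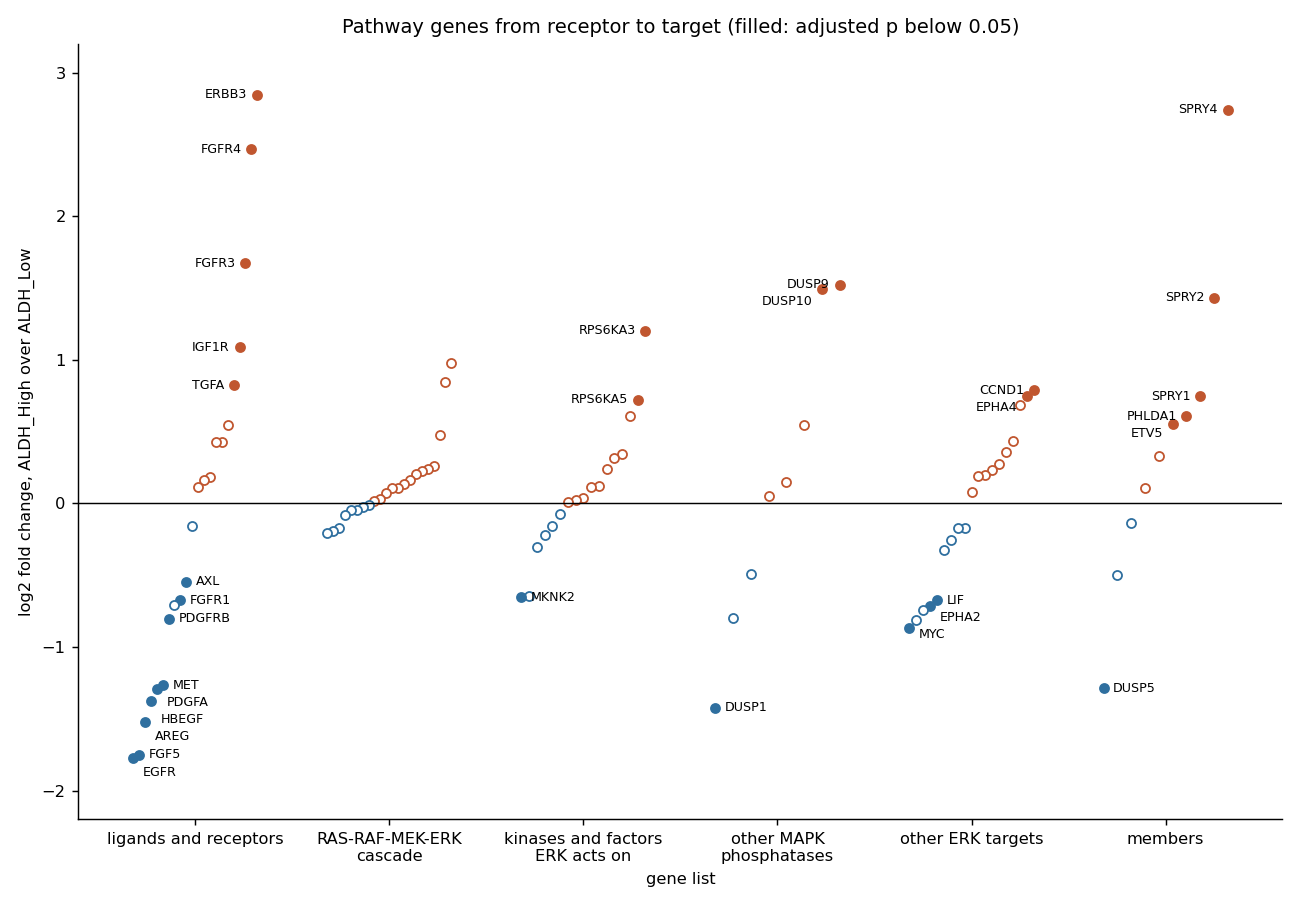
Log2 fold change of every tested gene of 5 pathway lists and of the members, ALDH_High over ALDH_Low, filled and named where the adjusted p was below 0.05. Filled points are frequent among the 22 ligands and receptors, and none of the 22 cascade genes is filled.

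Of 22 genes of the RAS-RAF-MEK-ERK cascade, 0 passed the threshold in edgeR (3 had an unadjusted p below 0.05), and DESeq2 called GAB1 alone. Log2 fold changes ran from -0.21 (MAPK3, the gene of ERK1) to 0.98 (GAB1, an adaptor downstream of receptors), and BRAF itself stood at -0.023. Without ALDH_High replicate 1, RASA2 and PTPN11 were called higher and MAPK3 lower, and without ALDH_Low replicate 1 GAB1 was called higher. Of 17 tested genes from a list of ERK-directed kinases, transcription factors and cofactors, RPS6KA3 (1.20), the gene of the kinase RSK2, and RPS6KA5 (0.72), that of MSK1, rose. MKNK2 (-0.65), that of MNK2, fell, so that 3 of the 17 were called where 20.6% of all genes were. RPS6KA3 had 165, 183 and 209 CPM in ALDH_High and 91.0, 79.8 and 71.6 CPM in ALDH_Low. It alone was called without ALDH_High replicate 3. RPS6KA5 missed the threshold without ALDH_High replicate 3 (0.72, edgeR adjusted p 0.0501) or ALDH_Low replicate 3 (0.70, 0.0524), and MKNK2 missed it without ALDH_High replicate 2 (-0.56, edgeR adjusted p 0.0998), ALDH_High replicate 3 (-0.55, 0.0881), ALDH_Low replicate 1 (-0.67, 0.0570) or ALDH_Low replicate 2 (-0.51, 0.0982).

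Among 8 further MAPK phosphatases, directions were mixed as they were among the members. DUSP9 rose from 5.87 ± 0.191 to 16.9 ± 0.558 CPM (log2 fold change 1.52, edgeR adjusted p 7.93e-05) and DUSP10, which acts mainly on the stress kinases JNK and p38, from 9.38 ± 1.02 to 26.5 ± 6.60 CPM (2.82-fold, edgeR adjusted p 0.000405). DUSP1, an immediate early gene, was at 35.0 ± 14.6 CPM in ALDH_High and 93.5 ± 17.5 CPM in ALDH_Low and fell by 1.42 on the log2 scale (edgeR adjusted p 0.00310; SD, n = 3). Thus 3 of the 8 were called, where 20.6% of all genes were. Without ALDH_High replicate 1, 5 of the 8 were called, 3 higher and 2 lower, in a fit that called 4221 of all genes against 3513 with all libraries.

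Other ERK target genes were split in direction. Of 19 tested, CCND1 (cyclin D1, which drives entry into the cell cycle) and EPHA4 rose, and EPHA2, MYC and LIF fell. Thus 5 of the 19 were called, where 20.6% of all genes were. The median log2 fold change of the 19 was 0.081. CCND1 had 428, 765 and 689 CPM in ALDH_High replicates 1, 2 and 3 and 345, 405 and 339 CPM in ALDH_Low replicates 1, 2 and 3. The groups of CCND1 were apart by a narrow margin at ALDH_High replicate 1 (log2 fold change 0.79, SE 0.19, edgeR adjusted p 0.0160). EPHA2 had 398, 408 and 370 CPM in ALDH_High and 645, 681 and 604 CPM in ALDH_Low, wide apart (-0.72, SE 0.10, edgeR adjusted p 0.000900). The log2 fold change was 0.75 for EPHA4 (edgeR adjusted p 0.0277), -0.86 for MYC (0.00374) and -0.67 for LIF (0.0342). FOSL1, a long-lived readout of ERK in melanoma, was at 533, 568 and 536 CPM and at 575, 638 and 631 CPM (-0.17, edgeR adjusted p 0.280). In fits that left out a library, 3 genes of the list were called without ALDH_High replicate 3, 3 without ALDH_Low replicate 2 and 3 without ALDH_Low replicate 3, and EPHA2 and MYC passed in each of the 6. CCND1 did not pass without ALDH_High replicate 2 (0.64, edgeR adjusted p 0.0626), ALDH_Low replicate 1 (0.77, 0.0559) or ALDH_Low replicate 3 (0.74, 0.0761). EPHA4 did not pass without ALDH_High replicate 2 or 3 or ALDH_Low replicate 2 or 3 (0.57 to 0.80, edgeR adjusted p 0.0586 to 0.0947), and LIF without ALDH_High replicate 1 or 3 or ALDH_Low replicate 1 or 2 (-0.63 to -0.51, 0.0768 to 0.121). The median of the list turned negative without ALDH_High replicate 1 (-0.12) and without ALDH_Low replicate 3 (-0.14).

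Cyclin D1 is also read as a cell cycle gene, and genes of G2 and M phase differed between the groups: 6 of 12 rose and 0 fell, among them UBE2C (1.76), CDK1 (1.66) and TOP2A (1.19), with a median of 0.48. Among all genes tested, 10.8% rose and 9.83% fell. Their summed level was 3924 to 4250 CPM in ALDH_High and 2551 to 3020 CPM in ALDH_Low. Their part in the values of the members was not tested.

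The authors' deposited table gives log2 coefficients for the high and the low group, each against another group that is not analysed here, from a model of 5 groups. In the authors' deposited table the high coefficient minus the low one was 2.76 for SPRY4, 1.45 for SPRY2, -1.26 for DUSP5, 0.13 for DUSP6 and -0.11 for ETV4. For SPRY4 the authors' deposited table has 2.47 in the high group and -0.30 in the low group, and for DUSP5 it has -0.40 and 0.86.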

How the data were processed

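RNA was sequenced from Aldefluor-sorted A375 cells in 3 ALDH_High and 3 ALDH_Low libraries (TruSeq stranded mRNA, per the labels' protocols). Named without settings, per the submitters' processing notes, are FastQC 0.11.3, STAR 2.5.1b, HTSeq 0.6.1, DESeq2 and GRCh38; the annotation and the strand setting of the counting are not given in the sources used here. The authors deposited whole numbers per gene, handled here as estimated counts because 133 to 177 genes per library had 0 there beside a TPM above 0; the test planned for counts was kept. The TPM table was deposited by the authors as well. Beside the TPM values it holds the authors' log2 coefficients, of which those of the high and low groups were used; per the file headers the model had 5 groups. In the count table, 261 rows without a symbol carried at most 0.0267% of a library's counts and stayed in under their identifiers.

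Low genes were removed with filterByExpr, leaving 17047. The 6 libraries were scaled by TMM and fitted in edgeR 4.0.16 (glmQLFit, then a two-sided glmQLFTest) on the sort group alone, with Benjamini-Hochberg adjustment and a threshold of 0.05. SEs were taken as the size of the log2 fold change over the root of the F statistic, and intervals (95%) are unadjusted. Profiles used log2 CPM with a prior count of 2. Gene positions come from GENCODE 44 (GRCh38). The script was tested on simulated data. Replicate numbers correlated by 0.15, 0.076 and 0.11 across groups, which did not meet the rule for pairs.

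Members and lists were chosen with earlier results of these data known, so they received no set test and no p-value of their own. Text names follow a rule: the members, ALDH1A3, the 3 genes most like DUSP6, and up to 3 called genes per list and direction by smallest p, or every one where 5 or fewer were called. EGR1, FOSL1, BRAF, SPRY3, FGFR1, FGFR2, the cascade genes and the cell type markers named were chosen after their values were seen. EGR1 and FOS stand in 2 lists. Alternatives were DESeq2 1.42.0 size factors, upper-quartile factors, no filter, 10 counts as a minimum everywhere, the replicate block, leaving out single libraries, the Wald test of DESeq2, and limma 3.58.1 on log2(TPM + 1) or log2(TPM + 0.1) above a mean TPM of 1, the former also unfiltered.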

Additional observations from a re-analysis of the deposited data

How the results depend on the processing

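SPRY4 (2.62 to 2.84), SPRY2 and DUSP5 (-1.49 to -0.98) kept direction and call in all 15 alternatives that were listed at the outset, with adjusted p at most 0.0476 (edgeR, DESeq2 or limma), while SPRED1 and DUSP6 passed in none of the 15. The members called numbered 3 in limma without a TPM filter, 3 at an adjusted p below 0.01, and 3 to 7 with a library left out. All genes called fell from 3513 to 2006 in limma without a TPM filter and to 1930 at 0.01, and numbered 2488 to 4221 with a library left out. The cause of these shifts was not tested. What a greater depth would change was not tested.

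DUSP4 passed with upper-quartile factors (-0.55), without the low-count filter (-0.49), under the replicate block (-0.52) and in DESeq2 (-0.48), and ran from -0.70 to -0.38 with a library left out. In limma on log2(TPM + 1), SPRY1 no longer passed with the TPM filter (0.68) or without it (0.68), and without it neither did ETV5 (0.57) or PHLDA1 (0.65). With a library left out, SPRY1 ran from 0.61 to 0.86, ETV5 from 0.43 to 0.72, PHLDA1 from 0.47 to 0.80 and ETV4 from -0.36 to -0.0027. Relative to chromosome 13, an alternative chosen after seeing the data, SPRY2 was at 1.06. The replicate block called 7 members, 9 other ERK targets and 12 immediate early and heat shock genes; the numbers are not known to pair the libraries.

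Other ERK targets called numbered 9 without the low-count filter, 2 in each of the limma versions and 3 to 6 with a library left out. For the other lists these left-out ranges were 3 to 5 (MAPK phosphatases), 0 to 3 (cascade), 1 to 4 (ERK-directed kinases and factors) and 4 to 13 (immediate early and heat shock). The cascade had 1 call without the low-count filter and 1 in DESeq2, the ERK-directed kinases and factors 1 in each limma version, and the stress and early response genes 12 without the low-count filter and 3 in limma without a TPM filter. The median log2 fold change of the ligands and receptors turned positive with 10 counts as a minimum everywhere (0.14) and in limma on log2(TPM + 1) (0.15), on log2(TPM + 0.1) (0.16) and without a TPM filter (0.047), and that of the ERK-directed kinases and factors turned negative with upper-quartile factors (-0.0097). With a library left out, medians ran from 0.38 to 0.56 for the members, from -0.14 to 0.22 for the other ERK targets, from 0.0092 to 0.15 for the ERK-directed kinases and factors, from -0.25 to 0.069 for the ligands and receptors and from 0.44 to 0.58 for G2 and M phase.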
